A study of Mus musculus with 6 samples.

Results

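The small leucine-rich proteoglycans (SLRPs) are a family of secreted matrix proteins built around tandem leucine-rich repeats. Here 10 genes of the family, Bgn, Dcn, Aspn, Fmod, Lum, Prelp, Kera, Omd, Ogn and Podn, were followed by their Ensembl gene identifiers among the 53801 genes counted in each library. The genes were listed by name and family, not by a measured value, but with earlier results of these data known. All 10 were found in the count tables, and 9 of them had enough reads for a test of differential expression, Kera being the exception.

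RNA sequencing was carried out on MC3T3-E1 cells, an established mouse pre-osteoblast line, in 3 Control and 3 Hdac4-knockdown libraries, to ask how transcription changed when the class IIa histone deacetylase Hdac4 was reduced. Both groups were infected with a lentivirus that carries ZsGreen1 and a puromycin resistance gene, and both were selected in 5 μg/mL puromycin for 7 days. Control cells carried a scrambled hairpin, and Hdac4-knockdown cells a short hairpin against Hdac4, which the study's account of the sequencing identifies as Hdac4-shRNA3. The study describes the 3 libraries of a group as biological replicates, and the labels as independent RNA samples of each infected cell line. Neither mentions separate infections, so p-values measure the spread between these samples, which may in part be technical.

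SLRPs bind fibrillar collagens in the extracellular space, limit the lateral growth of fibrils and space them. Class I members (Bgn, Dcn and Aspn) and class II members (Fmod, Lum, Prelp, Kera and Omd) differ in their glycosaminoglycan chains, which are chondroitin or dermatan sulfate on biglycan and decorin and keratan sulfate on several class II proteins. The family also binds TGF-beta and cell surface receptors, and biglycan and osteoadherin (Omd) are known components of bone matrix.

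The hairpin named Hdac4-shRNA3 is shown because it defines the knockdown, with capitals for the bases that match Hdac4.
Hdac4-shRNA3: GCATGAGGCACAGTTGCATGA
Its 21 bases matched transcripts of Hdac4 in the GENCODE M21 annotation exactly and matched none of the 10 SLRP genes. Hdac4 had 1243, 1204 and 1136 counts in the Control libraries and 950, 927 and 887 in the Hdac4-knockdown libraries, and the groups did not overlap. Its level fell from 40.3 ± 0.412 to 29.6 ± 0.981 CPM (mean ± SD, n = 3 each), where CPM is counts scaled to 1000000 of the library size scaled by TMM, a normalization that assumes most genes do not change. The log2 fold change was -0.44 (SE 0.057, edgeR quasi-likelihood adjusted p = 8.98e-07). Hdac4 shares 3536 of its 15813 exon bases with the gene Gm26720, and its mRNA level in the knockdown was 73.6% of Control.

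Libraries held 29096544 to 31651826 counts on genes. Genes with at least 1 count numbered 19373 to 19797 in Control and 22148 to 22640 in Hdac4-knockdown libraries, and reads outside annotated genes made up 3.17 to 3.41% and 4.64 to 5.07%, respectively. Whether this difference in library composition had a part in the SLRP results was not tested. The osteoblast lineage list had 6 of 8 tested genes higher and 1 lower in the knockdown (11 listed; of all genes tested, 38.0% were called higher and 37.1% lower), and its summed level was 5710 to 5750 CPM in Control and 23400 to 24200 CPM in the knockdown. The sum rose mostly through Col1a1 (338 against 11015 CPM) and Col1a2 (1213 against 8572 CPM). Runx2, Sp7, Sparc and the osteocyte gene Dmp1 (3.58 against 20.9 CPM) were among the higher genes, and Spp1 was the lower one (3154 against 2046 CPM). The Runx2 change was small (log2 fold change 0.19) and its groups overlapped. Sp7 had 4, 7 and 2 counts in Control and could be tested only through its counts in the knockdown. The markers Alpl, Bglap and Ibsp were too low to be tested.

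The upstream sequences of 5 SLRP genes are shown because they head the genes with the widest range of responses: the chromosome 13 trio Aspn, Omd and Ogn, the most induced gene Fmod and the most abundant gene Bgn. Each is the 250 bases before the transcription start in RefSeq (GRCm38.p6, plus strand), at chr13:49544193-49544442, chr13:49582212-49582461, chr13:49607765-49608014, chr1:134037004-134037253 and chrX:73483351-73483600 in the order given. Capitals mark matches on either strand to 5 motifs. These are TATAAA of the TATA box, the GC box core GGGCGG, the MEF2 motif (CTA and TAG with any 4 bases between them), the RUNX motif TGTGGT and the AP-1 motif TGACTCA, which reads TGAGTCA on the other strand.
Aspn: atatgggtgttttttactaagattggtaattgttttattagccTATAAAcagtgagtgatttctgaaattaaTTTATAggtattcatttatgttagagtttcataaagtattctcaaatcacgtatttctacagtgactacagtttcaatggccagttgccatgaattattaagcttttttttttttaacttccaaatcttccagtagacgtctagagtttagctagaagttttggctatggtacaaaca
Omd: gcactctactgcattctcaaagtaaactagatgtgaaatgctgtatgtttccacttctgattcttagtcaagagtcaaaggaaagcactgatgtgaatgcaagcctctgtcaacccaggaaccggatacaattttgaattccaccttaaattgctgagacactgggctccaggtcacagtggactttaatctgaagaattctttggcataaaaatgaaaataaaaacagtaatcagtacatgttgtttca
Ogn: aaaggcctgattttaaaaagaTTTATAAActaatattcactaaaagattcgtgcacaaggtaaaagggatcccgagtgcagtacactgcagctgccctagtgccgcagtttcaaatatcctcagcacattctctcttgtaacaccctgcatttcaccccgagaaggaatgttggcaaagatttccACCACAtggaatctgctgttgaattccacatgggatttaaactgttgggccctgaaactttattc
Fmod: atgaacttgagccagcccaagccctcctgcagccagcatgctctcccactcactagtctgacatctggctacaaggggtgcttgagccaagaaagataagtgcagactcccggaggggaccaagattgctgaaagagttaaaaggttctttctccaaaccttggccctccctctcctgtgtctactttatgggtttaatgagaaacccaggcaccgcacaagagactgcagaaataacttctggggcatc
Bgn: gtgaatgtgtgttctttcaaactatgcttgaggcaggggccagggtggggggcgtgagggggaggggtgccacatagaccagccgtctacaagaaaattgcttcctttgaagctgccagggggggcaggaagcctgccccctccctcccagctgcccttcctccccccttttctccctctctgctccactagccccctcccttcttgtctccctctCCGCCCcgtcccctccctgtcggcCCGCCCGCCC

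These 5 windows differed in base composition. G and C made up 30% of the Aspn window, 38.4% for Omd, 42% for Ogn, 51.2% for Fmod and 64.4% for Bgn, against a median of 52.4% over 32851 mouse promoter windows of the same length. The Bgn window held 3 copies of GGGCGG on the reverse strand, with their first bases 34, 10 and 6 bases before the start, and the last pair overlapped. Aspn and Ogn each held TATAAA on both strands, far upstream of the start, and the copies in Ogn overlapped. Ogn also held a RUNX match on the reverse strand, 65 bases before the start. No match to any of the 5 motifs was found in the windows of Fmod and Omd, nor in those of Prelp and Kera, whereas the second of the Podn windows held 2 copies of GGGCGG. Over all windows, 12.4% held TATAAA, 32.7% GGGCGG, 3.2% the MEF2 motif, 14% the RUNX motif and 4.46% the AP-1 motif. A match is a description of letters, not evidence that a factor binds there.

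All 9 tested SLRP genes were higher in Hdac4-knockdown libraries, with log2 fold changes from 1.83 for Ogn to 10.94 for Fmod. A gene was called when its adjusted p-value was below 0.05 and its log2 fold change was beyond 0.05 in size, the limits the study used. Across all 14531 genes tested, 38.0% were called higher and 37.1% lower by this rule, so a call alone was common. Fmod, Omd and Podn passed the filter on low counts through the knockdown libraries, and their calls therefore carry little weight in that count. Of the 6 members with at least 10 counts in every library (Bgn, Dcn, Aspn, Lum, Prelp and Ogn), 6 were called higher, against 37.7% of the 12487 genes that met the same condition. In size the change was larger than in most genes: the median log2 fold change of the tested members was 4.79, whereas over all genes it was 0.01 and the 95th percentile was 2.95. Genes called with a log2 fold change above 3 made up 4.88% of all tested genes. Of the 6 members with at least 10 counts in every library, Ogn was the only one not among them.

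**Figure D1:**
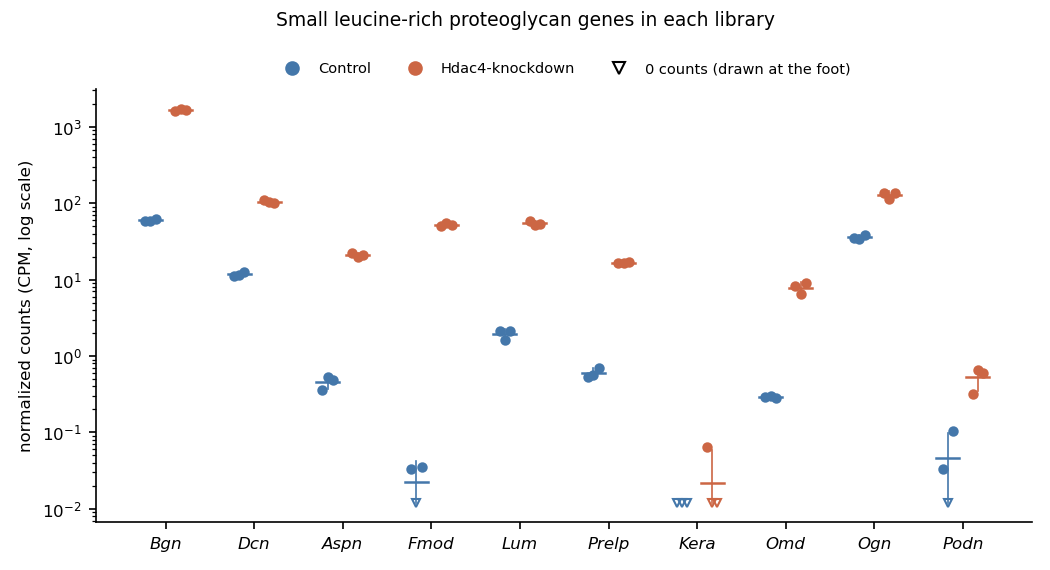
Level of each SLRP gene (CPM, log axis) in 3 Control and 3 Hdac4-knockdown libraries, with points for libraries, horizontal lines for the mean and vertical bars for ± SD, cut at the foot of the axis. Open triangles at the foot stand for libraries with 0 counts. The groups are separate for all 9 tested genes, from Podn near the foot to Bgn, which reaches 1659 CPM on average in the knockdown, while Kera has a point above the foot in only 1 library.

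Among class I genes, Bgn encodes biglycan, which carries chondroitin or dermatan sulfate chains and was the most abundant SLRP mRNA in the knockdown. It had 1767, 1746 and 1780 counts in the Control libraries and 49775, 54662 and 50316 in the Hdac4-knockdown libraries. Every knockdown library was far above every Control library, and replicates lay close together. The mean rose from 59.5 ± 2.54 to 1659 ± 45.1 CPM (SD, n = 3), which is 27.9-fold and 4.80 on the log2 scale (SE 0.0465, adjusted p = 1.60e-23 by edgeR). By p-value Bgn ranked 2 among the 14531 tested genes.

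Dcn encodes decorin, the founding collagen-binding member of the family. Its counts were 343, 343 and 362 in Control and 3443, 3357 and 3013 in the knockdown, with no overlap. The level rose from 11.8 ± 0.793 to 105 ± 5.66 CPM (log2 fold change 3.16, SE 0.0641, edgeR adjusted p = 2.67e-19). Aspn encodes asporin, a class I protein that lacks a glycosaminoglycan chain and carries a run of aspartate residues. It was close to silent in Control, with 11, 16 and 14 counts, and had 686, 634 and 639 counts in the knockdown. The rise from 0.462 ± 0.0909 to 21.02 ± 1.26 CPM equalled 5.50 as log2 fold change (SE 0.149, edgeR adjusted p = 2.83e-17). The 95% interval for Aspn from the edgeR F test, 5.19 to 5.81, lay above those of Bgn (4.70 to 4.90) and Dcn (3.02 to 3.29). Its SE was larger in other fits (0.248 with DESeq2 and 0.291 with limma-voom), so the separation from Bgn is uncertain.

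In class II, Fmod showed the largest change. It encodes fibromodulin, a keratan sulfate proteoglycan that binds collagen fibrils and the lysyl oxidase enzyme. Counts were 1, 0 and 1 in the Control libraries and 1550, 1755 and 1561 in the knockdown libraries, so the gene was near zero in all Control samples and moderately expressed in every knockdown sample. Summed over libraries and scaled for depth, 4866 counts against 2 gave a ratio of 2321, with a 95% counting interval of 642 to 19174 that covers counting error only. The fitted log2 fold change of 10.94 (SE 0.182, edgeR adjusted p = 1.38e-20) was the largest increase among 14531 genes, and with so few Control counts it depends on the prior count of the fit. The SE of 0.182, derived from the F test, understates the error. It was 1.02 with DESeq2 and 0.526 with limma-voom.

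Lum encodes lumican, which keeps collagen fibrils of cornea and skin thin and regular. It had 65, 48 and 61 counts in Control and 1809, 1670 and 1597 in the knockdown. The change from 1.96 ± 0.306 to 54.4 ± 3.53 CPM equalled 4.80 on the log2 scale (SE 0.0992, edgeR adjusted p = 3.55e-19). Prelp encodes a basic protein that anchors basement membranes to collagen. Its counts rose from 16, 17 and 20 to 509, 526 and 510, with the knockdown libraries almost alike. The log2 fold change was 4.79 (SE 0.145, edgeR adjusted p = 1.61e-16). Prelp shares 350 of its 3615 exon bases with Gm15851 on the opposite strand, but that gene had 0 counts in every library except 1 with 1 count.

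Omd encodes osteomodulin, also known as osteoadherin, a class II SLRP of mineralized tissue. Counts were 9, 9 and 8 in Control and 252, 208 and 273 in the knockdown. Its log2 fold change of 4.73 (SE 0.230, edgeR adjusted p = 3.23e-13) had an interval of 4.25 to 5.22, which covers the estimates for Bgn, Lum and Prelp. Kera encodes keratocan, a keratan sulfate proteoglycan of the cornea. It had 0 counts in all Control libraries and 2, 0 and 0 in the knockdown, so no fold change is given and a difference was not detectable at this depth.

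Ogn, the class III member that encodes osteoglycin (mimecan), was the second most abundant SLRP by counts in Control. It had 1086, 1023 and 1105 counts there and 4279, 3616 and 4055 in the knockdown. The level rose from 36.2 ± 2.36 to 128 ± 14.1 CPM, the smallest change of the tested members (log2 fold change 1.83, SE 0.0697, edgeR adjusted p = 6.25e-15). Podn encodes podocan, of class V. With 1, 0 and 3 counts in Control and 10, 21 and 18 in the knockdown, its groups were separate, and it was the least abundant tested member in the knockdown. The ratio of 49 to 4 summed counts was 11.7, with a 95% counting interval of 4.29 to 44.6, and the fitted log2 fold change was 3.43 (SE 0.678, edgeR adjusted p = 1.47e-04). Without the second Hdac4-knockdown library Podn no longer passed the filter, and 8 SLRP genes were called instead of 9.

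A two-sided exact permutation test on each tested member gave p = 0.1, which is the lowest value that 3 samples in each group can reach. Separation alone is weak information here, because 38.8% of all tested genes had knockdown libraries that all lay above the Control libraries. In bulk RNA, a larger share of expressing cells and more RNA per cell cannot be told apart.

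The 10 genes together had 3299, 3202 and 3354 counts in Control and 62315, 66449 and 61982 in the knockdown. Their share of gene counts was 0.0104 to 0.0115% in Control libraries and 0.205 to 0.21% in knockdown libraries. As summed CPM this was 111 ± 5.91 against 2045 ± 26.9, 18.4-fold higher. The composition of this sum shifted towards Bgn, which made up 53.6, 54.5 and 53.1% of it in Control and 79.9, 82.3 and 81.2% in the knockdown (exact permutation p = 0.1, the lowest possible). Ogn went the other way, from 32.6 ± 0.568 to 6.28 ± 0.747%, although its own level rose. Dcn also took a smaller share, 10.6% in Control and 5.15% in the knockdown. Fmod went from 0.02 to 2.55% and Lum from 1.76 to 2.66%.

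**Figure D2:**
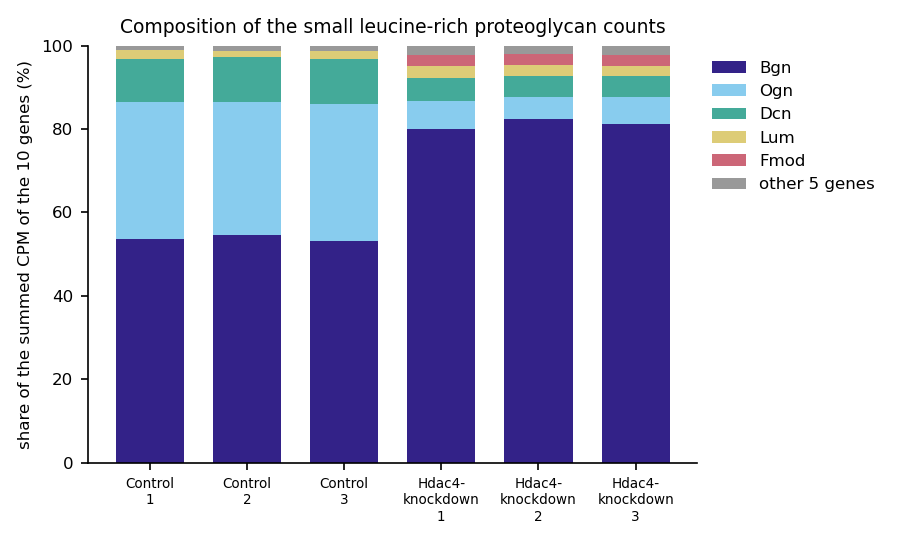
Share of the summed SLRP level (%, from CPM) taken by each gene in each library, as stacked bars from 0 to 100. Bgn fills 53.1 to 54.5% of the Control bars and 79.9 to 82.3% of the knockdown bars, and the Ogn band narrows from 32.6 to 6.28% on average.

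Levels of different genes were compared as CPM per kilobase of exon. In Control, Ogn led at 14.1 ± 0.919, followed by Bgn at 9.76 ± 0.416, Dcn at 2.02 ± 0.136 and Lum at 0.799 ± 0.125 CPM per kilobase. Aspn (0.196) and Prelp (0.165) overlapped across libraries, Omd was at 0.13, and Podn, Fmod and Kera at the bottom overlapped one another. In the knockdown the order was Bgn at 272 ± 7.40, Ogn at 50.04 ± 5.51, Lum at 22.2 ± 1.44, Dcn at 18.0 ± 0.969 and Fmod at 15.8 ± 0.664, then Aspn at 8.93, Prelp at 4.58, Omd at 3.51 and Podn at 0.123 CPM per kilobase. Fmod thus went from the 3 lowest members to a level close to that of Dcn. The order near the top depended on the length used, since annotated Bgn exons cover 6099 bases and its longest transcript 2666. Per kilobase of longest transcript, Bgn already led Ogn in Control (22.3 against 14.1), and Dcn and Lum overlapped in the knockdown (22.4 and 22.2).

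Several SLRP genes are neighbours in the genome, and the sequence of genes at each locus allowed a comparison within a short distance. On chromosome 13, Aspn (49544443 to 49567565), Omd (49582462 to 49592822) and Ogn (49608046 to 49624501) lie in a row on the plus strand of GRCm38, 14.9 and 15.2 kb apart. All 3 rose, but unequally: the log2 ratio of Aspn to Ogn was 3.65 higher in the knockdown than in Control, that of Omd to Ogn 2.84 higher and that of Aspn to Omd 0.81 higher. On chromosome 10, Dcn (97479609 to 97518143) and Lum (97565128 to 97572703) are 47.0 kb apart, and the ratio of Lum to Dcn was 1.64 higher on the log2 scale. Kera lies beyond Lum at 97606879 to 97613692 and had almost no reads.

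On chromosome 1, Prelp (133910304 to 133921414, minus strand) and Fmod (134037254 to 134048277, plus strand) are 116 kb apart, and the ratio of Fmod to Prelp was 5.77 higher on the log2 scale. Bgn lies on chromosome X (73483602 to 73495933) and Podn on chromosome 4 (108014791 to 108096445). The ratio of Bgn to Dcn, both class I genes, was 1.64 higher. Each of these 6 ratios was separate between the groups, with an exact permutation p of 0.1 and 0.1 after adjustment over the 6 pairs, so none could reach 0.05 in this design. Omd and Fmod passed the filter only through the knockdown libraries, and with Control counts of 1, 0 and 1 for Fmod, the size of the Fmod to Prelp difference depends on the prior count of 2 used for log2 CPM.

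The genes around the SLRP loci changed in both directions. Leaving out other SLRP genes such as Ecm2, and genes that overlap a locus, of the 50 nearest tested genes, 5 on each side of 5 loci, 13 were called higher, 25 lower and 12 were not called, with a median log2 fold change of -0.17. Over all tested genes, 38.0% were called higher and 37.1% lower, and the difference from that background was not tested. Around Aspn, Omd and Ogn, 7 of these 10 neighbours were lower and 1 higher, while around Prelp and Fmod 3 were lower and 5 higher. Of these 5, Lax1 and Chit1, both at 0.0786 CPM in Control, passed the filter only through the knockdown, and the groups of Zc3h11a overlapped. Xlr3c, called higher near Bgn from 0.158 CPM in Control, also passed the filter only through the knockdown. Ecm2, an SLRP gene 11.7 kb before Aspn, was higher (1.58). Cenpp, a centromere protein gene that spans the trio, was lower (log2 fold change -1.31), and it shares only 7 of the 2354 exon bases of Aspn. Outside the SLRP family, the nearest called genes on either side were Tes3-ps (-2.16, 47.9 kb away) and Nol8 (0.20, 28.6 kb). For Dcn, Lum and Kera they were much further off, with the antiproliferative gene Btg1 higher at 857 kb (0.81) and the calcium pump gene Atp2b1 lower at 1300 kb (-0.66). Around Prelp and Fmod, the calcium pump gene Atp2b4 was lower at 109 kb (-0.62) and Btg2 higher at 26.9 kb (0.64). Around Bgn, Haus7 at 24.6 kb (-0.30) and the phosphatase gene Dusp9 at 143 kb (-2.83) were both lower. Around Podn, the fatty acid transferase gene Cpt2 at 91.2 kb (-0.58) and Zyg11b at 133 kb (-0.21) were both lower.

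**Figure D3:**
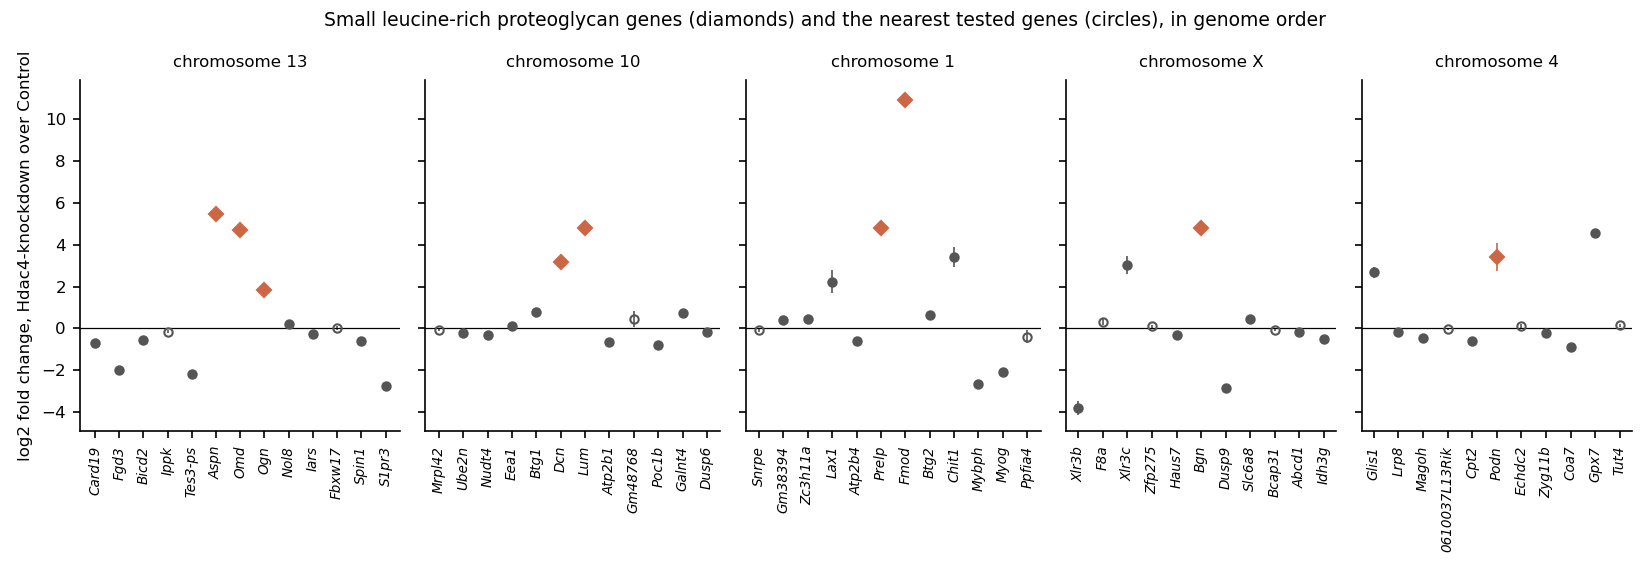
Log2 fold change (Hdac4-knockdown against Control) of the SLRP genes (diamonds) and the 5 nearest tested genes outside the family on each side (circles, open when not called) at 5 loci, in gene order, with bars for ± SE. SLRP genes stand at 1.83 to 10.94, while the 50 neighbours range from -3.81 to 4.54 with a median of -0.17.

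Outside the 10 genes, 8 further SLRP genes were counted, and they changed less evenly. Of 5 tested, 3 were higher, 1 was lower and 1 was not called, where 38.0% of all genes were called higher and 37.1% lower. Nyx passed the filter only through the knockdown, and 2 were called higher among genes with at least 10 counts in every library. Ecm2, which encodes an SLRP-like matrix protein and lies 11.7 kb before Aspn, had 24, 25 and 18 counts in Control and 79, 68 and 64 in the knockdown (log2 fold change 1.58). Nyx, which encodes nyctalopin of the retina, had 0, 4 and 4 against 18, 33 and 35 counts (3.30). Tsku, which encodes the secreted signalling protein tsukushi, rose from 27.9 to 35.5 CPM (0.35). Podnl1, the paralog of Podn, fell from 18.9 to 11.4 CPM (-0.73), opposite to Podn. Chadl did not pass the test (0.08, edgeR adjusted p = 0.838).

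The 3 genes below the filter were Epyc, Optc and Chad. Epyc, next to Kera, had 0 summed counts in Control and 9 in the knockdown, at least 2.86-fold higher against a floor of 3 counts over the group. Optc, next to Prelp, had 4 and 29 (ratio 6.92, 95% counting interval 2.43 to 27.1), and Chad, which encodes the cartilage protein chondroadherin, had 4 and 40 (ratio 9.54, interval 3.45 to 36.7).

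Genes that work with SLRPs were taken as 5 lists. All 11 collagens bound by SLRPs were higher, with a median log2 fold change of 2.82, against 38.0% called higher among all genes. Col14a1 passed the filter only through the knockdown, and 10 collagens were called higher among genes with at least 10 counts in every library, as also without the first Control or the third knockdown library. Col1a1, the main collagen chain of bone, rose from 338 to 11015 CPM (log2 fold change 5.03), the cartilage collagen Col2a1 rose from 0.827 to 51.1 CPM (5.93), and Col12a1, which coats fibrils, rose by 3.71. Col3a1 changed least, with 1787 CPM in Control and 2098 in the knockdown (0.23).

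The list of proteases that process or cleave SLRPs also holds Pcolce, an enhancer of procollagen processing that is not itself a protease. Of the 11 tested genes on the list, 8 were higher and 3 lower, with a median of 1.00 (all genes 38.0% higher and 37.1% lower). Pcolce was among the higher ones (0.28). Among genes with at least 10 counts in every library, which leaves out Mmp3, 7 were higher and 3 lower. Mmp2, the gelatinase, was higher by 4.63 and the collagenase Mmp13 by 3.10, whereas the serine protease Htra1 was lower (-1.82), as was Bmp1, which removes the propeptide of biglycan (-0.19). Among ligands and receptors, 10 of 15 tested were higher, 3 were lower and 2 were not called (median 0.60), beside the same 38.0% and 37.1%. Tlr2 (1.74) and P2rx7 (1.63), innate immune receptors through which soluble biglycan signals, were higher. Tlr4 on the same list was lower (-0.31), as was the decorin-binding receptor gene Met (-1.33). The TGF-beta genes Tgfb1, Tgfb2 and Tgfb3 rose by 0.17, 0.88 and 0.76, and the receptor gene Tgfbr1 fell by 0.52.

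The enzymes that build the sugar chains moved in both directions. Of 19 tested chondroitin and dermatan sulfate enzymes, 13 were higher and 4 lower, with a median log2 fold change of 0.32, where 38.0% of all genes were higher and 37.1% lower. The largest change was in Chst7, a chondroitin sulfate sulfotransferase gene with 18, 10 and 12 counts in Control and 159, 202 and 184 in the knockdown (3.69). B3gat3, which completes the linkage to the core protein, was higher by 1.05 and the dermatan sulfate epimerase Dse by 0.96, while Csgalnact1, which starts the chondroitin chain, was lower (-0.97). Of 7 tested keratan sulfate and tyrosine sulfation enzymes, 5 were higher and 2 lower (median 0.31), against the same 38.0% and 37.1%. Among genes with at least 10 counts in every library, which leaves out B3gnt2, 4 were higher and 2 lower. Here Chst1, the keratan sulfate sulfotransferase, fell from 78.4 to 14.8 CPM (-2.41), and Tpst1, a tyrosine sulfotransferase, and the galactosyltransferase gene B4galt4 were higher by 0.76 and 0.49.

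**Figure D4:**
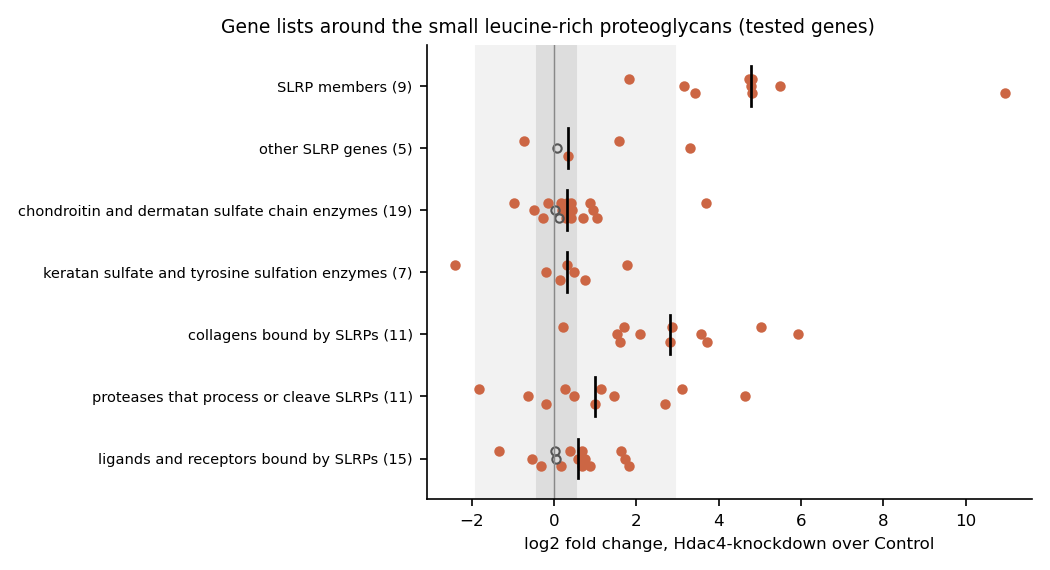
Log2 fold change of each tested gene in the SLRP list and its companion lists (points, open when not called), with a black bar at each list's median and shaded bands for the 25th to 75th and 5th to 95th percentiles of all 14531 tested genes. The SLRP median of 4.79 and the collagen median of 2.82 lie above the medians of 0.31 to 1.00 of the enzyme, protease and receptor lists.

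Markers of other cell types moved in several directions, where 38.0% of all tested genes were called higher and 37.1% lower. All 5 skeletal muscle markers were lower, with a summed level of 163 to 173 CPM in Control and 32 to 36.2 CPM in the knockdown, and the adipocyte list fell from 27.3 to 29.6 CPM to 3.07 to 4.52 CPM, mostly through Pparg (log2 fold change -3.07), with Lep at 0 in all libraries. Of the chondrocyte list, 2 of 3 tested genes were higher, Col2a1 and Comp, and Comp passed the filter only through the knockdown. Sox9, which made up most of the Control sum, was not called (126 against 127 CPM). The sum of this list went from 125 to 128 CPM to 169 to 186 CPM, mostly through Col2a1 (0.827 against 51.1 CPM). Acan and Col9a1 were at 0 throughout. The tendon fibroblast genes split, with Scx lower (-1.36), Mkx higher (3.44) and Tnmd at 0 in every library, and their sum went from 39.3 to 42.3 CPM to 24.1 to 28.8 CPM. Endothelial markers summed to 0.262 to 0.421 CPM in Control and 2.81 to 3.16 CPM in the knockdown, with Pecam1 the only gene tested. Pecam1 had 6, 7 and 6 counts in Control and passed the filter only through the knockdown. The haematopoietic list lay at 1.4 to 2.49 and 1.96 to 2.42 CPM, with Adgre1 and Cd3e at 0, and the epithelial list at 0.491 to 0.969 and 0.565 to 0.905 CPM. What part these shifts had in the SLRP levels was not tested.

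For likeness across the 6 libraries, each gene's log2 CPM was centred on its own mean and compared by Euclidean distance. The genes nearest to Bgn were Gas6 (distance 0.158, log2 fold change 4.90), Postn (0.175, 4.91) and Mmp2 (0.24, 4.63). Postn encodes periostin, a matricellular protein of periosteum, and Gas6 a ligand of TAM receptors. Among the genes nearest to Fmod were Itga11 (distance 2.6, log2 fold change 7.35) and Col11a1 (2.7, 7.16), which encode a collagen-binding integrin chain and a fibrillar collagen. These distances were far larger than those to Bgn, so neither gene had a profile close to that of Fmod. With Control counts of 1, 0 and 1, the Fmod profile also depends on the prior count of 2. In 2 groups with close replicates, such distances mostly follow the size of the fold change.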

How the data were processed

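RNA of 3 Control and 3 Hdac4-knockdown samples was poly-A selected and sequenced with an unstranded kit. The authors deposited raw counts per Ensembl gene for each library. The submitters' processing notes name FastQC, STAR 2.7.3a, HTSeq 0.12.4 and the mouse build mm10, while the annotation and the strand setting are not given in the sources used here. The closing lines for reads outside genes, shared or aligned to several places were kept out of library sizes. Symbols, exon lengths and GRCm38 positions came from GENCODE M21, which held 53706 of the 53801 identifiers and lacked 95.

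Counts were fitted with edgeR 4.0.16 in R 4.3.3 (TMM, filterByExpr defaults, quasi-likelihood F test) and p-values were adjusted by Benjamini and Hochberg over 14531 genes. CPM was computed here from the deposited counts and the TMM library sizes. The test was also run on simulated data. Replicates differed by more than sampling noise (chi-square per degree of freedom 3.23 to 8.36 within groups), so each library counted as 1 sample. Counting intervals and floors cover counting error only. Alternatives were DESeq2 1.42.0, limma-voom (limma 3.58.1), other normalizations, filters and fold thresholds, the replicate number as a block, and leaving out each library.

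The SLRP genes, companion lists and markers were chosen with earlier results of these data known. Named genes were the members, Hdac4, other SLRP genes, up to 3 called genes with the largest change per list (at least 100 counts on average, groups separate), the nearest called neighbours outside the family on each side, and the 3 genes most like Bgn and like Fmod, of which 1 is not reported here. Bmp1, Pcolce, B3gnt2, Col3a1, Col14a1, Chst7, Mmp3, the TGF-beta genes and Tgfbr1, Tlr4, marker genes, Lax1, Chit1, Xlr3c, Zc3h11a and Cenpp were added after their values were seen. The 6 ratios between members were computed in the same way for each library. Of the members, 8 had a RefSeq promoter window, and Dcn and Lum had none. Protein sequences were not used here. Plots were made in matplotlib 3.10.9.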

Additional observations from a re-analysis of the deposited data

How the results depend on the processing

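All member and Hdac4 changes kept their direction and their side of the main thresholds under every alternative fit that gave a value. The Hdac4 change (-0.44) was smaller in size than the alternative fold thresholds of 0.5 and 1, so Hdac4 was not called at those. Leaving out 1 library moved the log2 fold change of Fmod between 10.41 and 11.29 and that of Podn between 2.87 and 4.67, the widest ranges, and the number of SLRP genes called higher between 8 and 9. Fmod, Omd and Podn could not be fitted with at least 10 counts in every library. The replicate numbers are not said to pair the groups, and the deviations of libraries with the same number correlated at -0.01, 0.03 and 0.02. With the replicate block, 9 SLRP genes were called higher and 0 lower, and over all genes 5523 and 5441, against 5521 and 5393 without it.

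Counts of called genes moved mainly with the fold threshold. At log2 thresholds of 0.5 and 1, 3579 and 2397 genes were called higher and 2879 and 1543 lower, and the same 9 SLRP genes were called higher at both. The chondroitin and dermatan sulfate enzymes then had 5 and 2 higher with 1 and 0 lower, the keratan sulfate and tyrosine sulfation enzymes 2 and 1 higher with 1 and 1 lower, and the genes next to SLRP loci 8 and 5 higher with 15 and 7 lower. At the threshold of 1, the proteases had 1 lower, the ligands and receptors 3 higher and 1 lower, and the other SLRP genes 0 lower. With no filter beyond 1 count, 6 other SLRP genes were called higher. With upper quartile normalization, which shifts the median by 0.09, 1 keratan sulfate and tyrosine sulfation enzyme was lower. The depth limits Kera, Epyc, Optc and Chad, and the Control level of Fmod and Podn.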

Other observations

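The tested members rose by different factors from different levels in Control, as noticed after the values were seen. Bgn, Lum, Prelp and Omd began at 59.5, 1.96, 0.598 and 0.292 CPM and rose 27.9-, 27.8-, 27.7- and 27.0-fold, with overlapping 95% intervals on the log2 scale (4.70 to 4.90, 4.59 to 5.00, 4.48 to 5.09 and 4.25 to 5.22). These 4 were picked for that likeness, and the other members differ from them. Aspn, at 0.462 CPM in Control, rose 45.5-fold, while Dcn and Ogn, at 11.8 and 36.2 CPM, rose 8.92- and 3.55-fold. Fmod and Podn, with 2 and 4 summed Control counts, had fitted log2 fold changes of 10.94 and 3.43.

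On chromosome 13, the log2 fold changes in map order were 1.58 for Ecm2, 5.50 for Aspn, 4.73 for Omd and 1.83 for Ogn. The intervals of Aspn (5.19 to 5.81) and Omd (4.25 to 5.22) overlapped. On chromosome 10, the log2 fold changes of Dcn and Lum were 3.16 and 4.80, and further along Kera had 0 summed counts in Control and 2 in the knockdown, and Epyc 0 and 9.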
